A study of Mus musculus with 17 samples.

Results

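Glu11 and Glu13 are 2 of the 15 clusters that the study's authors named Glu in single-cell RNA data of the mouse hypothalamus. Their members were all cells that carry either name in the deposited cluster identities, 66 of the 14276 annotated cells that could be joined to 1 library. Glu11 had 42 cells and Glu13 had 24, against 834 cells in the other 13 Glu clusters. The cells came from 3 mice deprived of food for 24 hours and 5 normally fed mice, all B6D2F1 hybrids of a C57BL6 female and a DBA2 male, with 1 to 4 Drop-seq libraries per mouse. Drop-seq captures single cells in droplets, where each RNA molecule receives a unique molecular identifier (UMI) beside the barcode of its cell. A level in CPM is a gene's share of the UMIs of the cells summed, times 1e6. The labels place food-deprived mouse 1 and normal mouse 3 in batch 1, and food-deprived mouse 2 and normal mouse 4 in batch 2. Food-deprived mouse 3 is alone in batch 4, normal mouse 5 alone in batch 3, and normal mice 1 and 2 are in batch 0. The sources used here give no sex or age of the mice.

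Kiss1 encodes kisspeptin, the peptide that drives gonadotropin-releasing hormone neurons, and Tac2 encodes neurokinin B, which acts through the receptor Tacr3. In the arcuate nucleus the same neurons make both, together with dynorphin from Pdyn, and are known by the initials KNDy. Pomc encodes proopiomelanocortin, which is cut into alpha-melanocyte-stimulating hormone and beta-endorphin, and arcuate Pomc neurons restrain feeding. Cartpt encodes a peptide precursor that many of them make as well.

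The start regions of the 3 genes that name the clusters are shown because Tac2 and Kiss1 were found in the same cells and Pomc in others. RefSeq start regions were found for 3 of 3 genes on build GRCm38.p6, with 250 bases before and 50 after the annotated start. All 3 lie on the plus strand: Tac2 at chr10:127724228-127724527, Kiss1 at chr1:133326962-133327261 and Pomc at chr12:3954695-3954994. Capitals mark TATAAA, the letters of a TATA box, and CANNTG, the letters of an E-box, on either strand.
Tac2: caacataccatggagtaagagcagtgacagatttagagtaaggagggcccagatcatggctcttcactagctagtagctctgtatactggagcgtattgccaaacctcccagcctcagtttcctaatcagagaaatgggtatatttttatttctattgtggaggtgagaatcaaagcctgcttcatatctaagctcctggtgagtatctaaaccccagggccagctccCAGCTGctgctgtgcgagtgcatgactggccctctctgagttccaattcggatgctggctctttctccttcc
Kiss1: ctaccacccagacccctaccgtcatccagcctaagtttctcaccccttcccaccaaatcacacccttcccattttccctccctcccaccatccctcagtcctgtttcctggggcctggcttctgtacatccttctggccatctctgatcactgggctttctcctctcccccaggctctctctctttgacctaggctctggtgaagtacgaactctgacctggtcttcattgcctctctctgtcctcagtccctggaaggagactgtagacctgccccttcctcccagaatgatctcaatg
Pomc: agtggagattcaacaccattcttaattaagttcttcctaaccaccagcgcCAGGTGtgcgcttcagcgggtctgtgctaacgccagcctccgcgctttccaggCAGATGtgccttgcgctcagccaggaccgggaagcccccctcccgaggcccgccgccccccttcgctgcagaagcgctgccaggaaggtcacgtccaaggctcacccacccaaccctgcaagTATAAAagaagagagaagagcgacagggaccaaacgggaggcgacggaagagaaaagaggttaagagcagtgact
The Pomc window held TATAAA 25 bases before the start and CANNTG at 200 and 147 bases before it. Tac2 held CANNTG once, 22 bases before the start, and Kiss1 held neither motif. Over 32817 windows of the same length, 13.6% held TATAAA and 72.3% held CANNTG. The 5 letters GGTCA, those of a nuclear receptor half-site, were also sought on either strand and are not in capitals. They occurred at 2 positions in Kiss1, there as TGACC, 1 in Pomc and none in Tac2, and in 40.5% of all windows. CACGTG, which is also a CANNTG, and TGACGTCA occurred in none of the 3, and in 7.15% and 1.79% of all windows. A match is a description of letters and not a binding site.

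Both clusters carried the peptides of their label. Clusters were formed on these same counts, so every level compared between clusters is a description without a test, and levels are means ± SD over mice in which the cluster had 5 or more cells. Tac2 reached 10384 ± 2325 CPM and Kiss1 4033 ± 1817 CPM in Glu11 (SD, n = 3 mice), against 14.6 ± 23.5 and 2.86 ± 3.48 CPM in the other Glu clusters (n = 7). In Glu13, Pomc reached 29531 ± 14577 CPM and Cartpt 11555 ± 8038 CPM (n = 2), against 31.5 ± 20.4 and 1241 ± 903 CPM in the other Glu clusters. Glu11 held 253621 UMIs in all and a median of 4974.5 per cell, and Glu13 held 202249 and 8396.5. The other 13 Glu clusters had medians of 2312 to 10277 UMIs per cell.

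Libraries differed in Gapdh, a glycolysis gene. It was at 4.25 to 8.20 CPM in 9 libraries and at 146 to 807 CPM in 8. Cells from the low-Gapdh libraries made up 23.8% of Glu11 and 33.3% of Glu13. All cells of both clusters in food-deprived mouse 1 and normal mouse 3 came from such libraries, and none of those in food-deprived mouse 3 or normal mouse 5 did. Some barcodes of 1 library differed by 1 deleted base. Glu11 held 3 such pairs and Glu13 held 1, and in all joined cells 188 of 203 such pairs had the same cluster name. Counted once, the pairs leave 39 Glu11 and 23 Glu13 cells. No member shared its barcode with an annotated cell of another library. No doublets were called.

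In Glu11, Tac2 and Kiss1 were found together in nearly every cell. Tac2 was detected in 41 of 42 cells and Kiss1 in 42 of 42, so that 41 cells (97.6%, exact 95% interval 87.4 to 99.9%) held both. In 1000 UMIs per cell the expected share with both was 85.9%. MO, whose 3501 cells held the myelin gene Mbp at 11605 CPM, serves as a cell type that should lack these peptides: 0.857% of its cells had a Tac2 UMI and 0.343% a Kiss1 UMI, at a median of 2195 UMIs. Tac2 UMIs outnumbered Kiss1 UMIs in 39 of 42 cells. The rank correlation of the cells' Tac2 and Kiss1 CPM was 0.78 over 42 cells of 7 mice, which share libraries and differ in depth. Intervals and floors given here cover counting error only.

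Tac2 was at 11480, 8322 and 12212 CPM in food-deprived mice 1 to 3 and 6532, 7982, 11172 and 7768 CPM in normal mice 1, 3, 4 and 5. These levels come from 2, 4 and 7 Glu11 cells in the food-deprived mice and 3, 4, 6 and 16 in the normal mice. Single cells ranged from 0 to 30146 CPM around a median of 8550. Kiss1 was at 5697, 2477 and 3786 CPM in the food-deprived mice and at 1499, 2695, 5961 and 2352 CPM in the same normal mice, so both genes overlapped between the feeding groups. The Tac2 to Kiss1 ratio ran from 2.01 to 3.36 in food-deprived mice and from 1.87 to 4.36 in normal mice.

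The only Glu11 cell without Tac2 stood in a barcode pair. It held 1329 UMIs in food-deprived mouse 2, and its partner, with 18577 UMIs the deepest cell of the cluster, had 5 Tac2 and 26 Kiss1 UMIs beside 6 of Gad1, 4 of Gad2 and 5 of Cartpt. With pairs counted once, every Glu11 cell had both peptides, and the share without food-deprived mouse 2 was 100%.

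Pdyn, the gene of the remaining KNDy peptide dynorphin, was near the detection limit. Pdyn gave 9 UMIs in 8 of 42 Glu11 cells (19.0%), or 23.5 ± 25.6 CPM (n = 3 mice), against 4.08 ± 2.67 CPM in the other Glu clusters. Its level in all cells summed, 35.5 CPM, ranked Glu11 the highest of the 15 Glu clusters, followed by Glu14 at 18.9 CPM on 9 UMIs. Pdyn was thus hardly counted in any Glu cluster, and 0.0286% of MO cells had a Pdyn UMI. In 1000 UMIs per cell, 3.24% of Glu11 cells would show it. Tacr3, the neurokinin B receptor, was in 24 of 42 Glu11 cells at 181 ± 84.6 CPM, against 3.13 ± 1.80 CPM in the other Glu clusters. Kiss1r, the kisspeptin receptor, gave 1 UMI. Of the 9 KNDy peptides and receptors, 4 were in at least 20% of Glu11 cells, and 3 of these (Kiss1, Tac2 and Tacr3) were more than 4-fold above the other Glu clusters. Over all genes detected that widely the share was 1.52%, and since the clusters were made from these counts nothing is read from it.

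Receptors for gonadal and pituitary hormones marked Glu11. Prlr, the prolactin receptor, was in 39 of 42 cells at 634 ± 454 CPM, against 67.7 ± 36.0 CPM in the other Glu clusters. Its level was 935, 349 and 733 CPM in food-deprived mice 1 to 3 and 1071, 744, 138 and 1030 CPM in normal mice 1, 3, 4 and 5. Esr1, estrogen receptor alpha, was in 25 of 42 cells at 135 ± 69.9 CPM, against 5.22 ± 3.38 CPM, and MO had it in 0.114% of cells. Pgr, the progesterone receptor and a classical estrogen target, was in 19 cells at 123 ± 89.6 CPM, against 27.8 ± 17.6 CPM. Esr2, estrogen receptor beta, gave no UMI. Of 8 hormone receptors 4 were in at least 20% of Glu11 cells, and Esr1 and Prlr were past 4-fold, beside 1.52% of all 4468 genes so detected, from which nothing is read.

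Transcription factors were 4 of the 15 genes with the largest ratio in Glu11: Nhlh2, Nr5a2, Tbx3 and Nr4a2. Nhlh2, a basic helix-loop-helix factor needed for normal reproduction in mice, was in 36 of 42 cells at 994 ± 114 CPM, against 48.5 ± 17.0 CPM in the other Glu clusters. Nr5a2, a nuclear receptor, stood at 326 ± 106 CPM against 0.742 ± 1.42 CPM, and Tbx3, a T-box factor of the arcuate nucleus, at 199 ± 16.5 CPM against 4.09 ± 3.43 CPM. Nr4a2, an orphan nuclear receptor, was at 489 ± 173 CPM, against 10.8 ± 8.74 CPM. Npr3, the natriuretic peptide clearance receptor, was at 327 ± 98.2 CPM and Inhbb, an inhibin and activin subunit, at 233 ± 151 CPM, against 1.36 and 1.55 CPM in the other Glu clusters. Lxn, a carboxypeptidase inhibitor, was at 974 ± 539 CPM against 28.5 ± 15.3 CPM. The remaining genes among the 15 leading ones were Slc38a3, a glutamine transporter, Aebp1, Ecel1, an endopeptidase of neurons, Col2a1, a collagen, and Fam159a, with log2 ratios of 3.54 to 4.10. Nr5a2 and Npr3 were at 0 UMIs in all 4 Glu11 cells of food-deprived mouse 2.

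By the Pearson correlation of levels over the 15 Glu clusters, the genes nearest to Tac2 were Plod1 (r = 0.88), Tacr3 (0.87), Nr5a2 (0.87), Aebp1 (0.86) and Inhbb (0.86). Those nearest to Kiss1 were Npr3 (0.93), Nr5a2 (0.90), Nlk (0.88), Nfkbia (0.88) and Lhfpl1 (0.87). These values describe 15 points that share libraries, and they were drawn from 11334 genes. With all cells summed, Tac2 and Kiss1 were at 9250 and 3450 CPM in Glu11. In any other Glu cluster they were at most 118 and 102 CPM, so r rests largely on 1 point. Plod1 rests on 10 UMIs in Glu11.

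All 24 Glu13 cells contained Pomc and Cartpt. Pomc took 1 to 1095 UMIs per cell, or 496 to 77197 CPM, around a median of 20283 CPM, and Cartpt took 217 to 56487 CPM around 8791. The share of cells with Pomc was 100% (exact 95% interval 85.8 to 100%), and 97.7% were expected to show it in 1000 UMIs. In MO 2.26% of cells had a Pomc UMI, but at a median of only 2195 UMIs. The share was 12.5% in Glu12 and 20.4% in Glu8, at medians of 6895.5 and 8730 UMIs, and higher still in Glu15. In 1000 UMIs, 2.24% of cells in the other Glu clusters were expected to show Pomc. The Glu13 cell with 1 Pomc UMI, in normal mouse 5, therefore cannot be told from this background. With at least 2 UMIs required, the share in Glu13 was 95.8%. Glu13 held 79.2% of all Pomc UMIs in the joined cells. Pomc UMIs outnumbered Cartpt UMIs in 20 of 24 cells, and the rank correlation of their CPM was 0.76 over 24 cells of 5 mice.

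Pomc levels differed between mice about as widely within a feeding group as across them. Food-deprived mice 1 to 3 had 19224, 15904 and 39839 CPM, and normal mice 3 and 5 had 13732 and 46829 CPM. Cartpt was at 5872, 8410 and 17239 CPM in the food-deprived mice and at 5111 and 30763 CPM in the normal mice. For both genes the 2 high mice were food-deprived mouse 3 and normal mouse 5, whose Glu13 cells all came from high-Gapdh libraries, and food-deprived mouse 2, whose 3 Glu13 cells did as well, was low. These levels rest on few cells. In normal mouse 5, with 4 Glu13 cells, 1 cell held 1095 of 1711 Pomc UMIs. Another held 768 of its 1124 Cartpt UMIs. Over all of Glu13, the 5 highest cells held 61.5% of the Pomc UMIs and, for Cartpt, 68.0%. Within batch 1 Pomc was at 19224 CPM in food-deprived mouse 1 and at 13732 CPM in normal mouse 3. Normal mice 1, 2 and 4 had no Glu13 cell. The part of library kind and batch was not tested.

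**Figure D1:**
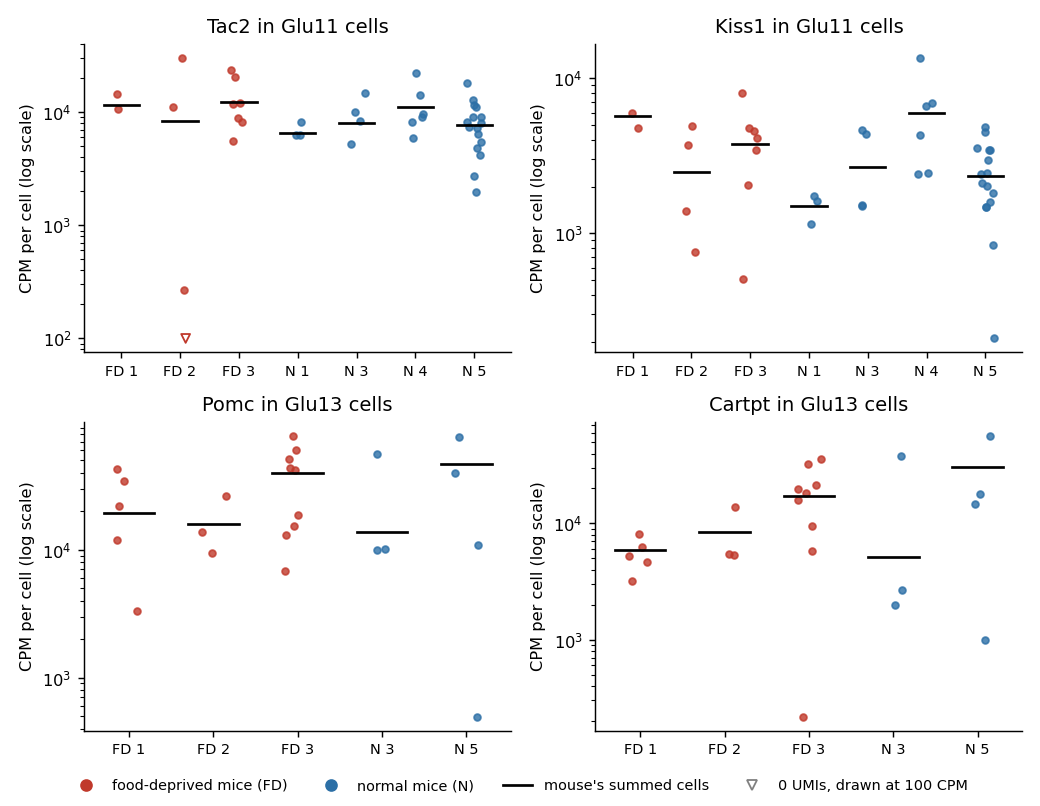
CPM of Tac2 and Kiss1 in each Glu11 cell and of Pomc and Cartpt in each Glu13 cell, on log scales, by mouse, with food-deprived mice (FD) left of normal mice (N). Black bars are the summed cells of a mouse and the open triangle is a cell with 0 UMIs. Tac2 bars lie between 6532 and 12212 CPM and Pomc bars between 13732 and 46829 CPM, and the feeding groups overlap in every panel.

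Glu13 also expressed genes of arcuate development. Tbx3 was in 18 of 24 cells at 317 ± 58.9 CPM, against 4.09 ± 3.43 CPM in the other Glu clusters. Isl1, a LIM homeobox factor required for Pomc expression in mice, was in 19 cells at 272 ± 53.8 CPM, against 31.8 ± 20.2 CPM. Six3 and Six6, homeobox factors of the ventral forebrain and eye field, were at 178 ± 57.1 and 97.8 ± 16.3 CPM, against 36.6 ± 34.5 and 2.90 ± 5.47 CPM. Nhlh2 was in 8 cells at 241 ± 97.9 CPM, against 48.5 ± 17.0 CPM. Of 21 arcuate transcription factors 6 were in at least 20% of Glu13 cells, and 5 of them (Tbx3, Nhlh2, Isl1, Six6 and Six3) were more than 4-fold above the other Glu clusters, against 0.777% of all 5660 genes so detected, from which nothing is read. Prdm12, another factor of Pomc neurons, gave 3 UMIs in 2 cells.

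Other leading genes of Glu13 were Fam159b at 422 ± 354 CPM, Serpina3n, a secreted protease inhibitor, at 621 ± 49.3 CPM, and Plagl1, an imprinted zinc-finger factor, at 177 ± 104 CPM. They were at 12.3, 37.8 and 8.18 CPM in the other Glu clusters. Cited1, a transcriptional coactivator, was at 579 ± 376 CPM, against 50.2 ± 33.4 CPM. Pon2, Cd24a, Asb4, Prokr1, Ecel1 and Rnf128 completed the list with log2 ratios of 2.77 to 3.33, and Gad1 was among the 15 as well. The genes nearest to Pomc over the 15 Glu clusters were Six6 (r = 0.93), Pon2 (0.92), Elf1 (0.87), Plagl1 (0.79) and Gch1 (0.77). With all cells summed, Pomc was at 29266 CPM in Glu13 and at most 60.3 CPM in any other Glu cluster. These values of r therefore rest largely on 1 point, and genes found mainly in Glu13 score high by construction. Elf1 rests on 7 UMIs in 5 Glu13 cells.

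Metabolic receptors were detected unevenly in Glu13. Lepr, the leptin receptor, gave 2 UMIs in 2 of 24 cells, and Glp1r none. With all cells summed, these Lepr UMIs made 9.89 CPM, still the highest of the 15 Glu clusters. Lepr was thus hardly counted in any Glu cluster. Insr, the insulin receptor, gave 8 UMIs in 7 cells. Npy1r, Npy2r and Npy5r, receptors of neuropeptide Y, were in 16, 7 and 9 of 24 cells. Of these Npy2r was past 4-fold over the other Glu clusters, at 66.5 ± 27.8 CPM against 7.33 ± 4.94 CPM, as was Irs4, an adaptor of insulin receptor signalling, at 256 ± 52.6 CPM against 53.4 ± 34.1 CPM. Mc3r, a melanocortin receptor, gave 1 UMI. In Glu11, Lepr gave 0 UMIs in 42 cells, which allows a share of up to 7.14% of cells with a UMI, and Ghsr, the ghrelin receptor, gave 10 UMIs in 8 cells. Npy5r was the 1 of 6 widely detected metabolic receptors past 4-fold in Glu11, at 76.9 ± 52.2 CPM against 7.52 ± 4.44 CPM, beside the same 1.52% of all genes. In Glu13 the share over all genes was 0.777%, and nothing is read from either.

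The transmitter genes of Glu13 went against the name Glu in part. Slc17a6, the vesicular glutamate transporter that marks glutamate neurons, was in 11 of 24 Glu13 cells, and its 208 CPM in all cells summed was the lowest of the 15 Glu clusters, whose highest level was 1109 CPM. Gad2, an enzyme that makes GABA, was in 13 of 24 Glu13 cells at 455 CPM, second among the Glu clusters after Glu9 at 595 CPM. The 18 clusters named GABA had a median of 886 CPM for Gad2 and 7.96 CPM for Slc17a6. Gad1, the other such enzyme, was in 10 cells at 178 CPM, second after Glu2 at 184 CPM. Slc32a1, the transporter that loads GABA into vesicles, gave 0 UMIs in 24 cells, which allows a share of up to 12.5% of cells with a UMI, and its median over the GABA clusters was 386 CPM.

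Some Glu13 cells held both glutamate and GABA genes. Slc17a6 and Gad2 were both found in 7 cells, Slc17a6 alone in 4, Gad2 alone in 6 and neither in 7. In 1000 UMIs per cell the expected share with both was 3.27%, and the rank correlation of their CPM was -0.03. Gad2 was at 234, 393 and 345 CPM in food-deprived mice 1 to 3 and at 458 and 1067 CPM in normal mice 3 and 5. Slc17a6 was at 375, 131 and 224 CPM in the food-deprived mice and at 76.3 and 0 CPM in the normal mice. Gad2 UMIs outnumbered Slc17a6 UMIs in 4 of 5 mice, the exception being food-deprived mouse 1. The feeding groups, with 17 food-deprived and 7 normal cells, did not overlap for either gene, and they did not overlap for 22.4% of all 5660 widely detected genes of Glu13 either, so nothing is read from it. Slc17a6 in normal mice 3 and 5 rests on 1 and 0 UMIs. The 5 cells with the most Gad2 held 68.5% of its UMIs in Glu13. In MO 6.31% of cells had a Gad2 UMI, but at a median of 2195 UMIs per cell against 8396.5 in Glu13. Slc18a2, the vesicular monoamine transporter, was in 9 of 24 Glu13 cells at 98.9 CPM, the highest of the Glu clusters, and Th, the enzyme that starts catecholamine synthesis, gave 0 UMIs.

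Glu11 had the transmitter profile of its name. Slc17a6 was in 35 of 42 cells at 619 CPM, seventh of the 15 Glu clusters. Gad1 and Gad2 were each in 7 cells, at 51.3 and 43.4 CPM, and Slc32a1 gave 0 UMIs, which allows a share of up to 7.14% of cells with a UMI. Slc17a6 UMIs outnumbered Gad2 UMIs in all 7 mice with Glu11 cells.

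**Figure D2:**
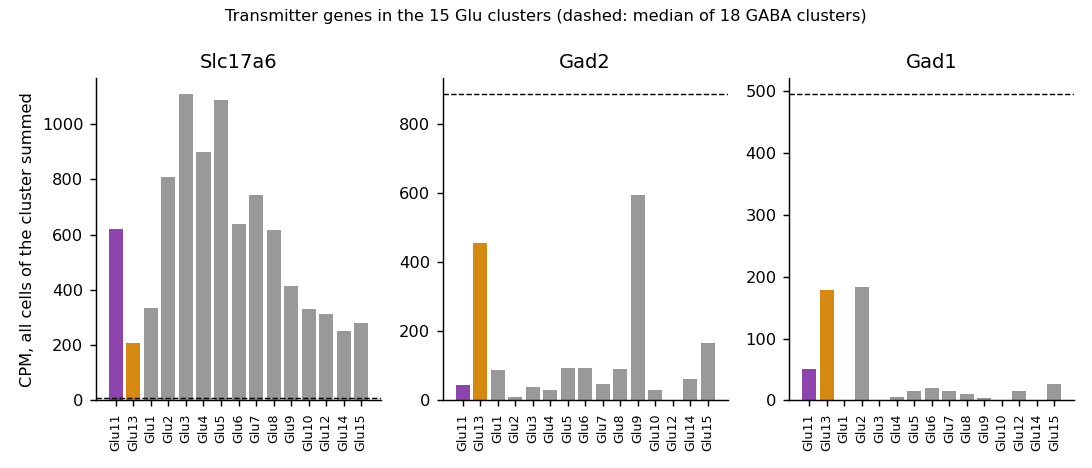
CPM of Slc17a6, Gad2 and Gad1 in the summed cells of each of the 15 Glu clusters, with Glu11 in purple, Glu13 in orange and the median of the 18 GABA clusters as a dashed line. Glu13 has the lowest Slc17a6 bar (208 CPM) and the second Gad2 (455 CPM) and Gad1 (178 CPM) bars, and Glu11 stands at 619, 43.4 and 51.3 CPM.

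Set directly against Glu13, Glu11 was higher in Tac2, Kiss1, Tacr3, Nr5a2, Npr3, Nr4a2, Inhbb, Slc38a3, Fam159a, Aebp1, Lxn, Rasd1, Pde4b, Kcnd2 and Rpph1, and Glu13 in Pomc, Cartpt, Serpina3n, Dlk1, Fam159b, Sncg, Cd24a, Six3, Cd44, Sox2, Nol3, Rnf128, Cpne4, Pon2 and Isl1. Each direction lists the 15 largest log2 ratios among genes found in at least 20% of the higher cluster's cells. Tac2 and Kiss1 gave 0 UMIs in Glu13, so with a floor of 3 UMIs over the cluster they were at least 624-fold and at least 233-fold higher in Glu11. Tacr3 and Inhbb were also at 0 UMIs in Glu13, and at least 11.4-fold and 9.57-fold higher in Glu11. Pomc gave 5 UMIs and Cartpt 6 UMIs in Glu11, against 5919 and 2824 in Glu13. Serpina3n, Fam159b and Six3 gave 0 UMIs in Glu11, which makes it at least 52.3-fold, 32.2-fold and 14.2-fold lower.

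The genes past 4-fold were 162 higher in Glu11 (2.66% of 6083 genes) and 164 higher in Glu13 (2.70%), shares from which nothing is read. The split was 261 and 336 with a pseudocount of 1 CPM, 28 and 16 with 50 CPM, 103 and 78 with cells pooled over mice, and 441 and 1042 in food-deprived mouse 3 alone. The mice with at least 5 cells also differ between the clusters: food-deprived mouse 3 and normal mice 4 and 5 for Glu11, and food-deprived mice 1 and 3 for Glu13. In food-deprived mouse 3, whose cells of both clusters came from 1 library, 29 of the 30 genes named above kept their direction and were past 4-fold. That mouse is among those whose means chose these genes, so its values are no independent support. Rpph1, the RNA subunit of ribonuclease P, was the exception, with a log2 ratio of 0. Tac2 there was at 12212 CPM in Glu11 and 0 in Glu13, and Pomc at 0 CPM in Glu11 and 39839 in Glu13.

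Some genes were high in both Glu11 and Glu13. Tbx3 ranked second in Glu11 and first in Glu13 among the 15 clusters, and Ecel1 first and second, at 534 ± 118 and 289 ± 54.9 CPM against 32.6 ± 20.3 CPM. Npy5r ranked first and second and Npy1r rank 3 and rank 1. Gal, the galanin precursor, was in 21 of 42 Glu11 cells at 605 ± 379 CPM and in 13 of 24 Glu13 cells at 827 ± 440 CPM, rank 3 and rank 2, against 136 ± 66.0 CPM. Over 4139 genes the log2 profiles of both were most like that of Glu8 (r = 0.85 for Glu11 and 0.87 for Glu13), and next most like each other (r = 0.85).

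Of 14 peptide processing genes, 12 were in at least 20% of cells in each cluster and none was past 4-fold in either direction. Scg2, a granule protein, was at 7970 ± 1825 CPM in Glu11 and 4024 ± 14.5 CPM in Glu13, against 3147 ± 686 CPM in the other Glu clusters. Pcsk1, the convertase that cuts Pomc first, was at 329 ± 81.5 and 156 ± 22.5 CPM, against 114 ± 31.4 CPM. Pcsk2, the later convertase, was at 108 ± 12.7 and 307 ± 118 CPM, against 456 ± 56.9 CPM. Of 14 excitability genes studied in such neurons, 2 were widely detected in each cluster and none was past 4-fold. Trpc5, a cation channel, gave 24 UMIs in 12 Glu11 cells and 6 UMIs in 5 Glu13 cells. Of 9 partners of leptin and insulin receptors, none of 4 widely detected was past 4-fold in Glu11 and 1 of 5, Irs4, was in Glu13. Over all genes so detected, 1.52% were over 4-fold higher in Glu11 and 0.777% in Glu13, and nothing is read from the list counts. Stat3, which relays leptin signals, was in 8 of 42 Glu11 cells and 14 of 24 Glu13 cells. Ttr, Anxa2 and Glipr1, which name subtypes of Pomc neurons, were each in 3 or fewer Glu13 cells, with 9 Ttr UMIs in 2 cells.

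All 7 pan-neuronal genes were widely detected in both clusters, and markers of other cell types were low. Of 10 pituitary markers, all were at 0 UMIs in Glu11. In Glu13, Tbx19, a T-box factor of pituitary Pomc cells, gave 5 UMIs in 1 cell and Cga 2 UMIs, while Pitx1, Pax7, Gh and Prl were at 0. Agrp was at 0 UMIs in both and Npy gave 1 UMI in Glu13. The 7 microglia and macrophage markers summed to 0 CPM in Glu11 and 4.94 CPM in Glu13. The 7 oligodendrocyte markers summed to 61.1 to 1386 CPM by mouse in Glu11 and 192 to 687 CPM in Glu13. In Glu11 the lowest sum was in food-deprived mouse 3 and the highest in normal mouse 5.

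**Figure D3:**
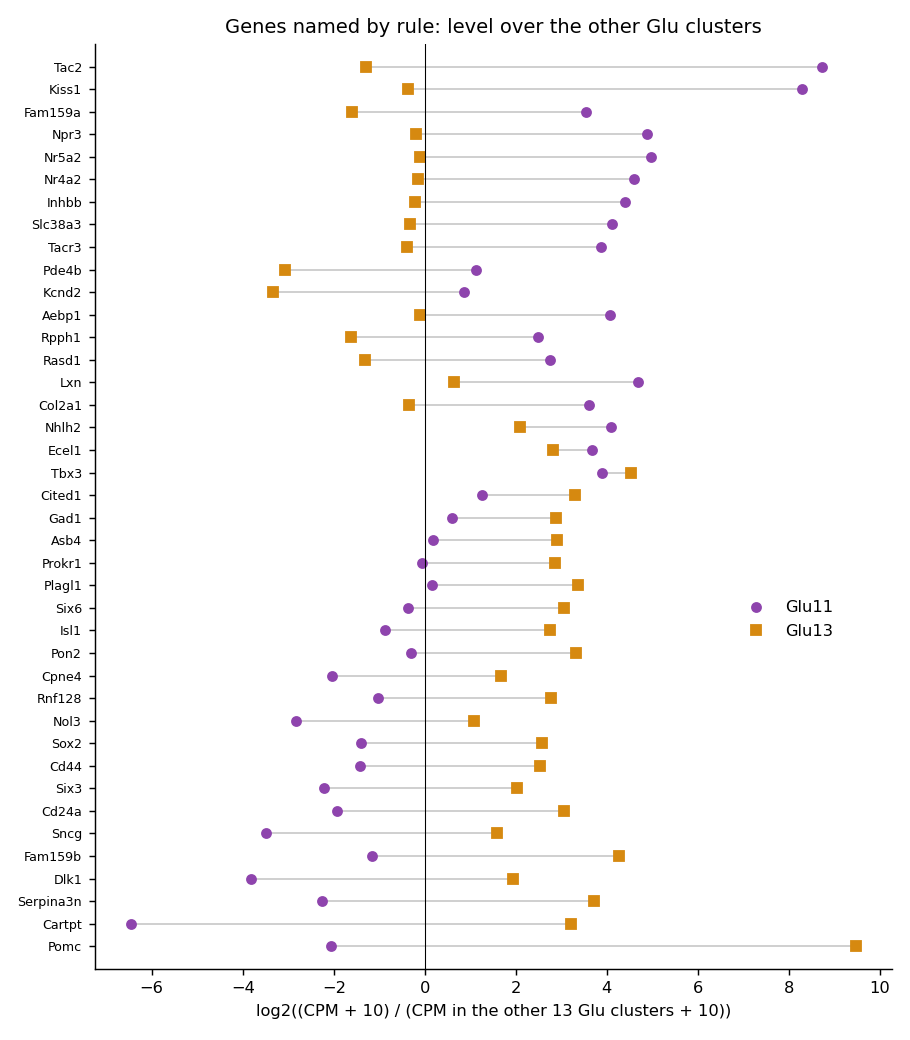
The genes named by rule, each with its log2 ratio of Glu11 (purple circles) and Glu13 (orange squares) over the other 13 Glu clusters, ordered by the ratio between the 2 clusters. Tac2 and Kiss1 stand out for Glu11 at 8.72 and 8.30 and Pomc for Glu13 at 9.48, while Tbx3 is high in both at 3.89 and 4.54.

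How often the 2 clusters occurred was the only value compared between feeding states with a test. Glu11 made up 1.10%, 2.20% and 5.83% of the Glu cells of food-deprived mice 1 to 3, and 2.60%, 8.45% and 8.99% of those of normal mice 3 to 5. The groups overlap, with means of 3.05 ± 2.48% and 6.68 ± 3.54% (SD, n = 3 each) and a difference of -3.63 percentage points (two-sided exact permutation test over mice, p = 0.2, adjusted over the 2 clusters p = 0.3). Glu13 made up 2.76%, 1.65% and 7.50% in the food-deprived mice, and 1.95%, 0% and 2.25% in the normal mice. Its means were 3.97 ± 3.11% and 1.40 ± 1.22%, a difference of 2.57 points (exact permutation p = 0.3, adjusted p = 0.3). With 3 mice against 3 the smallest possible p is 0.1, so the design could not have reached 0.05. The 0 Glu13 cells among 71 Glu cells in normal mouse 4 have an exact 95% interval of 0 to 5.06%. Labels give each library as a separate sample and tie it to a mouse, so the mouse is the replicate.

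Within batch 1 the difference, food-deprived minus normal, was -1.49 points for Glu11 and 0.81 for Glu13, and within batch 2 it was -6.25 and 1.65 points. Without food-deprived mouse 3 the Glu13 difference was 0.81 points, and within the low-Gapdh libraries it was -0.44. Normal mice 1 and 2 had 7 Glu cells each and were left out of the shares. Of those, 3 and 0 were Glu11 and none was Glu13.

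**Figure D4:**
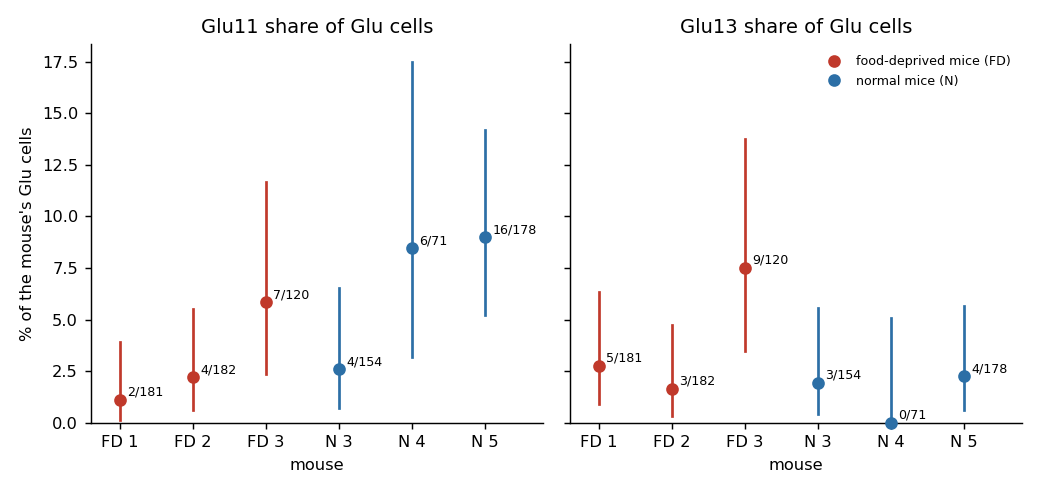
Share of each mouse's Glu cells that were Glu11 (left) and Glu13 (right), in percent, for the 6 mice with at least 50 Glu cells, food-deprived (FD) left of normal (N). Points are shares, lines exact 95% binomial intervals and the labels give the cells behind them. Intervals overlap across the feeding groups, except for Glu11 between FD 1 (0.134 to 3.93%) and N 5 (5.23 to 14.2%). FD 3 is highest for Glu13 at 7.50%.

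Gene levels by feeding state are given without a test, because few mice had 5 cells of a cluster. Food-deprived mice 1 to 3 had 2, 4 and 7 Glu11 cells, and normal mice 1, 3, 4 and 5 had 3, 4, 6 and 16. For Glu13 the cells were 5, 3 and 9 in the food-deprived mice, and 3 and 4 in normal mice 3 and 5. Values of mice with under 5 cells can rest on few UMIs. In Glu11, Gal was at 170, 159 and 1007 CPM in food-deprived mice 1 to 3 and at 214, 128, 553 and 254 CPM in normal mice 1, 3, 4 and 5. Esr1 was at 85.0, 63.5 and 91.6 CPM in the food-deprived mice and at 214, 257, 98.7 and 216 CPM in the normal mice. The groups did not overlap for Esr1, on 6 UMIs in 13 food-deprived cells and 34 UMIs in 29 normal cells, nor did they for 6.02% of all 4468 widely detected genes of Glu11. The nearest values, 91.6 CPM in food-deprived mouse 3 and 98.7 CPM in normal mouse 4, rest on 3 and 5 UMIs. Slc17a6 was at 680, 318 and 977 CPM and at 321, 385, 928 and 534 CPM, with overlap. In Glu13, Gal was at 515, 524 and 1138 CPM in the food-deprived mice and at 229 and 4625 CPM in normal mice 3 and 5, the last being the highest of all.

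Immediate early genes, which neurons switch on with activity, differed between mice. Their 11 members summed to 2381, 3557 and 672 CPM in the Glu11 cells of food-deprived mice 1 to 3, and to 857, 2284, 3158 and 2187 CPM in normal mice 1, 3, 4 and 5. In Glu13 the sums were 3764, 1931 and 2310 CPM in the food-deprived mice, and 1526 and 1642 CPM in normal mice 3 and 5. The Glu13 groups did not overlap, on 3 and 2 mice, as for 22.4% of single genes, and nothing is read from it. In the other Glu clusters the sums were 2795, 3615 and 1743 CPM in the food-deprived mice, and 1145, 887, 2002, 5280 and 3469 CPM in normal mice 1 to 5, with overlap. Fos in food-deprived mouse 3 was at 153 CPM in Glu11 and at 1086 CPM in Glu13, from the same library.

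**Figure D5:**
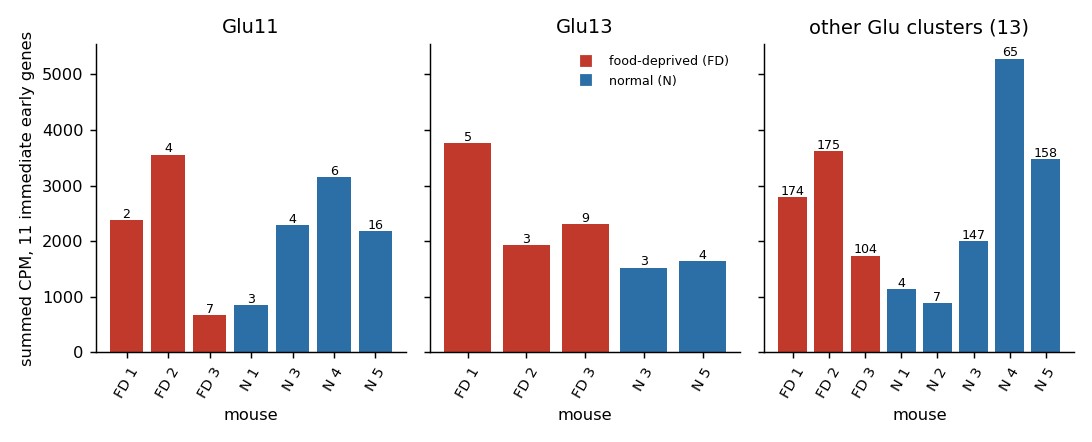
Summed CPM of 11 immediate early genes by mouse in Glu11, Glu13 and the other 13 Glu clusters, food-deprived (FD) left of normal (N), with the number of cells above each bar. In Glu11 the lowest bar is FD 3 at 672 CPM, and in Glu13 the 3 FD bars, at 1931 to 3764 CPM, stand above the N bars at 1526 and 1642 CPM, a separation that 22.4% of single genes also show in Glu13 in one direction or the other.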

How the data were processed

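The data are 17 Drop-seq libraries of 8 mice. The deposited tables hold UMI counts for each gene and barcode, whole numbers not normalized by the authors, and a cluster name per cell. The submitters' processing notes give build mm9; no aligner or counting tool is named (not given in the sources used here). Of the named cells, 14276 were joined to 1 library, with counts equal in all 23284 genes. The other 161, which hold no Glu11 or Glu13 cell, have barcodes found in 2 libraries. Mice held 290861 to 12570644 UMIs in 129 to 3639 joined cells.

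Counts were summed per mouse and cluster and divided by total UMIs (CPM). Ratios are log2 of CPM + 10 over mice with at least 5 cells, weighted equally, so they understate low genes. Genes named are the 15 with the largest ratio per contrast among those in at least 20% of the higher cluster's cells, plus members of 21 lists. The members and lists were chosen with earlier results of these data known. Shares of Glu cells in mice with at least 50 were compared by exact permutation, Benjamini-Hochberg adjusted. Thinning to 1000 UMIs used the exact expectation. Alternatives included TMM factors of edgeR 4.0.16 (R 4.3.3); other steps used Python 3.11.15, numpy 2.4.6 and scipy 1.17.1. Some genes are not reported here.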

Additional observations from a re-analysis of the deposited data

Results flagged for a closer look

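Cells outside Glu11 also held much Tac2. In zothers, the cells left without a cluster by the authors, 45 cells had at least 10 Tac2 UMIs, and none of the 45 had a Kiss1 UMI. They are listed because they lie outside the clusters compared above.

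Barcodes of the library tables without any cluster name, 3799 with a median of 548 UMIs and at most 799, held Pomc at 57.6 CPM, Tac2 at 51.1 CPM and Kiss1 at 9.52 CPM. Of them 2 had at least 10 Pomc UMIs and 1 at least 10 Tac2 UMIs. They are listed because they were used in no comparison.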

How the results depend on the processing

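The share tests could reach 0.05 only with all 8 mice, which gave -9.53 points (p = 0.5) for Glu11, with normal mouse 1 at 3 of 7 cells, and 3.13 points (p = 0.0714) for Glu13, by exact permutation. Both differences kept their direction in every alternative run except Glu13 within the low-Gapdh libraries, at -0.44 points with no test; the cause was not tested. Leaving out 1 mouse in turn gave -5.67 (without normal mouse 3) to -2.48 points for Glu11 and 0.81 (without food-deprived mouse 3) to 3.73 for Glu13. Settings that counted near-identical barcodes once, used only food-deprived mouse 3, or pooled high-Gapdh libraries for the fold count were chosen after seeing the data. Tac2 in Glu11 was at 7768 CPM with at least 10 cells per mouse, which leaves normal mouse 5 only and Kiss1 at 2352 CPM, and at 9470 to 11692 CPM without 1 mouse. The share of Glu11 cells with both peptides was 85.9% in 1000 UMIs, 100% with near-identical barcodes counted once and 96.2 to 100% without 1 mouse. The 326 genes past 4-fold between the clusters became 597 with a pseudocount of 1 CPM, 44 with 50 CPM, 500 without the detection filter, 116 with detection in 40% of cells, 181 with cells pooled over mice and 1483 in food-deprived mouse 3 alone. The pseudocount and detection settings change the rule itself; the cause of the other moves was not tested. Kiss1 in Glu11 ran from 3069 to 4874 CPM and Pomc in Glu13 from 19224 to 39839 CPM without 1 mouse, and the Pomc level rests on 2 mice. No paired analysis was possible because the mouse numbers were given in accession order and pair no mice, and because only 2 batches hold both feeding states, whose mean differences were -3.87 points for Glu11 and 1.23 for Glu13, with no test. Depth limits receptors of a few UMIs.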

Other observations

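The 45 zothers cells with at least 10 Tac2 UMIs, chosen after their values were seen, came from 6 mice: 9, 12 and 2 cells in food-deprived mice 1 to 3 and 16, 1 and 5 in normal mice 3 to 5. Their median was 7957 UMIs, against 3171.5 in the other 2264 zothers cells. They held 1557 of the 1802 Tac2 UMIs of zothers. Glu11 had 51.2% of all Tac2 UMIs and zothers 39.3%. In the 45 cells several genes of Glu11 were absent, with 0 UMIs of Kiss1, Pdyn, Tacr3, Nr5a2 and Tbx3. Others were present: Nr4a2 was in 12 of the 45 cells at 315 CPM, Nhlh2 in 11 at 65.8 CPM and Esr1 in 4. Gad2 was in 33 of the 45, Slc32a1 in 31 and Slc17a6 in 13. The genes with the largest ratio over the other zothers cells after Tac2 were Gm5741, Gpr151 and 3110047P20Rik, in 12, 11 and 15 cells. Further down the list came the nicotinic receptor subunits Chrna3 and Chrnb4 and the homeobox factor Pou4f1, in 11, 9 and 10 cells.

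Kiss1 was also high outside Glu11. Glu11 held 37.5% of all Kiss1 UMIs and GABA13 held 55.0%, in 18 of its 164 cells. Of these 13 had at least 10 Kiss1 UMIs, and none of the 13 had a Tac2 UMI. In MO, 2 cells had at least 28 Pomc UMIs, the higher with 253.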
